A study of Drosophila melanogaster with 6 samples.

Results

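The genes described here pattern limbs, 6 that act at the distal end of Drosophila appendages (al, Dll, B-H1, B-H2, ss and bab2) and dac, which acts in the middle. They were chosen by gene name, and selected on their measured levels in these same arrays, where the distal genes were low and dac was high after depletion of dTcf. All 7 were found, each as 1 feature, among the 11303 features tested. Because the comparison below is the one that singled them out, their values are given as a description and no test is drawn from them.

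The samples are 6 single-channel arrays of wing imaginal discs, the larval epithelia that give rise to the adult wing and back, dissected 7 days after transgene induction. In 3 arrays, called Yki + pan RNAi here, the label reads ap>YAP/Yki+dTcf/Pan-RNAi: the apterous (ap) driver expressed Yki, the growth-promoting co-activator of the Hippo pathway, and a hairpin against pan, the gene of dTcf, through which Wg (Wnt) signalling activates its targets. In the other 3, called Yki here, the same driver expressed Yki alone (ap>YAP/Yki). Both groups therefore carry the Yki transgene, and neither a disc without it nor a control hairpin is among the samples. The driver is known for the dorsal compartment, whereas RNA came from disc tissue as a whole, so driver-expressing and other cells were measured together, and fewer cells of a kind and less RNA per cell cannot be told apart. Levels are on the log2 scale as the authors deposited them, a change is the Yki + pan RNAi mean minus the Yki mean, given with its standard error (SE) from limma, and there were n = 3 arrays per group throughout.

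Limbs of the fly grow out along a proximal-distal axis. In leg and antennal discs, Wg and Dpp together switch on Dll in the centre, the future tip, and dac in a ring around it, while tsh stays on in the outer, proximal part. EGFR signalling later subdivides the tip, where al, the Bar genes B-H1 and B-H2, ss and bab2 are active in the tarsus, the pretarsus or the arista of the antenna. Several of these genes have other roles in the wing disc. Dll is activated by Wg on either side of the wing margin, and the Bar genes are expressed in the anterior notum, the future back.

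All 6 distal genes were lower in Yki + pan RNAi discs, by 2.02-fold to 3.24-fold, and dac was 1.5-fold higher. For each of the 7, the 3 arrays of one group lay wholly on one side of the 3 arrays of the other. Of all features tested, 21.6% had non-overlapping groups in the lower direction and 23.4% in the higher direction. At an adjusted p under 0.05 and at least 2-fold lower stood the 6 distal genes and 1.27% of all features. Whatever the fold, 13.4% of features passed the adjusted p in the lower direction and 12.1%, with dac among them, in the higher direction. With each array centred on its median, 1086 features were lower and 2086 higher, against 1518 and 1369 on the deposited values. Nothing is read from these counts, since the genes were picked on this contrast.

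Among the homeobox genes, al had the largest difference. The al gene, whose product specifies the pretarsus and the arista, read 9.23, 9.67 and 9.66 in the Yki + pan RNAi arrays, against 11.35, 11.19 and 11.11 in the Yki arrays. Its groups were 1.44 log2 units apart at their nearest arrays, the widest gap among the 7 genes. The change was −1.70 ± 0.13 (SE), or 3.24-fold, which is the 35th lowest of the 11303 changes.

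Dll, the selector gene of distal limb identity and a target of Wg in the wing, read 10.87, 11.14 and 11.23 in Yki + pan RNAi discs, against 12.07, 12.13 and 12.12 in Yki discs. The Yki arrays of Dll were nearly equal (SD 0.03), while those with pan RNAi spread more (SD 0.19), with replicate 1 the lowest. Its change was −1.02 ± 0.09. Dll is among the brighter features, since 94.6% of features had a lower mean.

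B-H1 and B-H2 encode paired homeodomain proteins of the distal tarsus that largely stand in for each other. B-H1 stood at 7.63, 7.15 and 7.51 in Yki + pan RNAi discs and at 8.34, 8.50 and 8.54 in Yki discs. B-H2 stood at 6.84, 6.83 and 6.97 in Yki + pan RNAi discs and at 8.02, 7.68 and 7.98 in Yki discs. Neither gene's groups overlapped, and the nearest arrays were 0.71 apart in both. Their changes were almost the same, −1.03 ± 0.13 for B-H1 and −1.02 ± 0.10 for B-H2. The order of the arrays was not the same, because Yki replicate 1 was the lowest Yki array for B-H1 and the highest for B-H2. Whether each feature detects its own transcript alone was not tested.

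The gene ss encodes a bHLH-PAS transcription factor that gives the distal antenna its identity and is needed in the tarsus. It measured 7.39, 7.58 and 7.85 in Yki + pan RNAi discs, against 9.08, 9.23 and 9.03 in Yki discs. The groups were 1.17 apart at their nearest, and the change of −1.50 ± 0.12 (2.84-fold) was the second largest of the 7. The gene bab2, a BTB-domain regulator of tarsal segments, measured 8.42, 8.43 and 8.56 in Yki + pan RNAi discs, against 9.32, 9.64 and 9.56 in Yki discs. Its pan RNAi arrays were close together (SD 0.08), its Yki arrays less so (SD 0.17), and the change was −1.04 ± 0.09.

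Unlike the others, dac was higher with pan RNAi. This gene, which encodes a nuclear cofactor needed for the intermediate leg segments and the eye, read 9.04, 9.00 and 9.08 in Yki + pan RNAi discs, against 8.39, 8.40 and 8.58 in Yki discs. The pan RNAi arrays of dac lay within 0.08 of each other and the nearest arrays of the groups were 0.42 apart. The change was 0.58 ± 0.06, the 160th highest of all features.

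**Figure D1:**
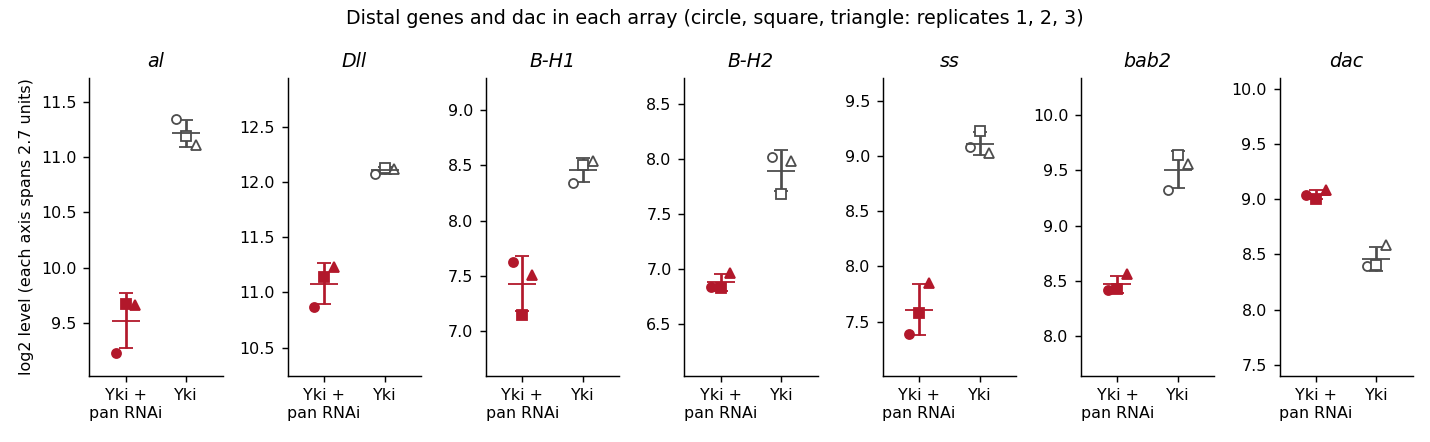
Log2 level of each gene in each array, with Yki + pan RNAi arrays filled and Yki arrays open (bars: mean ± SD, n = 3; every vertical axis spans the same number of log2 units). The 6 distal genes lie lower in every Yki + pan RNAi array than in any Yki array, and dac lies higher.

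To set the distal genes beside dac on one scale, each gene was centred on its own mean over the 6 arrays. The mean of the 6 distal genes was then −0.71, −0.64 and −0.48 in the Yki + pan RNAi arrays, against 0.59, 0.62 and 0.62 in the Yki arrays. The distal mean minus dac was −1.00, −0.89 and −0.81 in Yki + pan RNAi arrays, against 0.95, 0.97 and 0.78 in Yki arrays, a change of −1.80. Leaving out any 1 array gave −1.86 to −1.75. These numbers restate how the genes were chosen and carry no test.

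Replicate arrays of the distal genes mostly spread more than those of the median feature, whose SD was 0.07 in each group. Of the 12 within-group SDs of the distal genes, 11 were above that median, the exception being Dll in Yki discs, and with dac they ran from 0.03 to 0.25. Yki + pan RNAi replicate 1 was the lowest of its group for al, Dll, ss and bab2, and replicate 2 was the lowest for B-H1 and B-H2. Replicate 3 was the lowest for none and the highest for Dll, B-H2, ss and bab2. Without replicate 1 the changes were −1.55 for al, −1.40 for ss and −0.92 for Dll, and without replicate 2 that of B-H1 was −0.89.

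For Dll, B-H1, B-H2 and bab2 the difference sat close to the 2-fold line. On the deposited values all 6 distal genes were past it. With each array centred on its median the changes were −0.97 for Dll, −0.98 for B-H1, −0.96 for B-H2 and −0.98 for bab2, so that al (−1.64) and ss (−1.45) alone remained past it. After quantile normalization al, Dll, ss and bab2 were past it. Leaving out Yki replicate 1, 2 or 3 left 5, 5 and 4 of the 6 past the line. Leaving out Yki + pan RNAi replicate 1, 2 or 3 left 4, 4 and 6. In all of these settings the 6 distal changes stayed negative and that of dac positive, between 0.55 and 0.65.

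**Figure D2:**
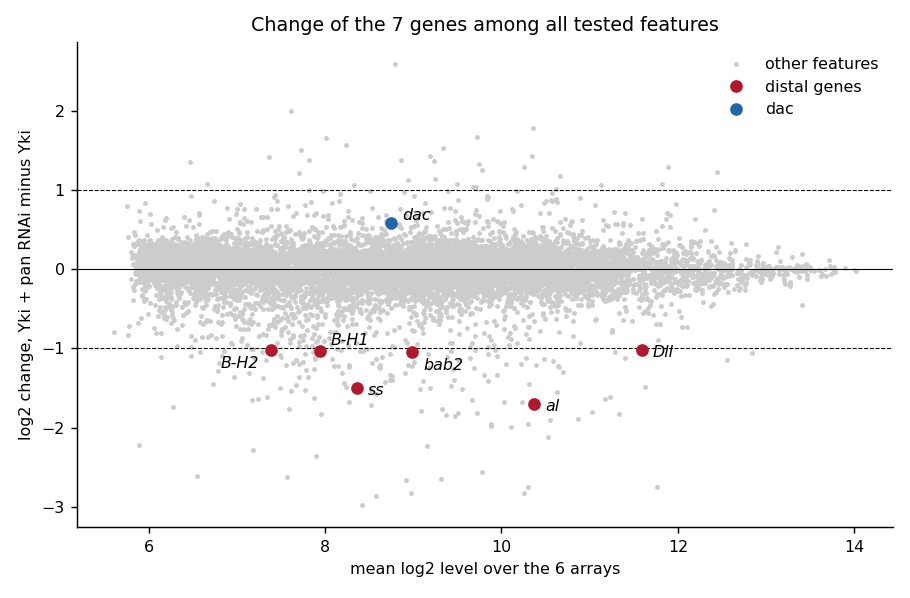
Log2 change (Yki + pan RNAi minus Yki) of every tested feature against its mean log2 level, with dashed lines at 2-fold. The distal genes al and ss lie well below the lower line, Dll, B-H1, B-H2 and bab2 lie on it at levels from dim to bright, and dac lies above 0 at 0.58.

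Other genes of the distal programme moved in part. Of 10 measured, 5 fell, 1 rose and 4 did not pass the adjusted p, with a median change of −0.17 against 0.03 over all features. Beside this count and those of the lists below, 13.4% of all features fell and 12.1% rose at the adjusted p. A single called gene in a list is not read as a result. The zinc finger gene rn, needed in the tarsus and in the wing, was at 9.25, 9.36 and 9.44 in Yki + pan RNAi discs and at 10.02, 10.02 and 10.10 in Yki discs (change −0.70 ± 0.06, adjusted p = 0.00083). The cell surface gene trn was at 10.48 ± 0.19 (SD) with and 11.14 ± 0.13 without pan RNAi (adjusted p = 0.00739). C15, a homeobox gene that acts with al in the pretarsus, was at 7.62, 7.85 and 7.93 with pan RNAi and at 8.20 ± 0.01 (SD) without, a smaller change of −0.40 ± 0.08 (adjusted p = 0.0141). The cofactor gene nab changed by −0.52 ± 0.11 (adjusted p = 0.0154).

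The fall of danr, an antennal gene, was at the limit of the test (−0.30 ± 0.09, adjusted p = 0.0419). It missed the threshold when any array but Yki + pan RNAi replicate 3 was left out, with adjusted p = 0.0538, 0.12 and 0.091 without Yki replicates 1, 2 and 3, and 0.126 and 0.109 without Yki + pan RNAi replicates 1 and 2. It also missed it with arrays centred on their medians (0.0994) or quantile normalized (0.115). The selector gene ap, which is active in a distal leg segment and marks the dorsal wing compartment, rose by 0.37 ± 0.04 (adjusted p = 0.00182). Lim1, dysf, dan and bab1 did not pass. The paralogue bab1 was at 7.37, 7.41 and 7.43 with pan RNAi and at 7.43, 7.44 and 7.46 without (change −0.04 ± 0.04, adjusted p = 0.533), beside −1.04 for bab2. The difference between the 2 paralogues was not tested, as bab2 was chosen for its change.

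A list drawn up around the proximal side held 6 measured genes. Of these, 2 rose, 1 fell and 3 did not pass, with a median change of 0.06. The list also holds genes of appendage growth and leg segmentation, so the count is not one of proximal markers alone. The rises were those of the zinc finger genes tsh and tio, a related pair that marks the proximal limb and the body wall. The tio gene read 10.52, 10.41 and 10.30 in Yki + pan RNAi discs, against 9.33, 9.13 and 9.01 in Yki discs (change 1.25 ± 0.09, adjusted p = 0.000556), and tsh changed by 1.06 ± 0.07. Of the other genes in the list, noc, a zinc finger gene of appendage growth, fell to 10.04 ± 0.11 (SD) with pan RNAi, against 10.69 ± 0.09 without (adjusted p = 0.00208). Its partner elB was at 11.15 ± 0.06 (SD) with pan RNAi and 11.19 ± 0.02 without (adjusted p = 0.56). The genes bowl and lin, which act in leg segmentation, did not pass either. For lin, the adjusted p of 0.078 became 0.0332 with median-centred arrays and 0.0381 with trend and robust eBayes.

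The eye genes that work with dac did not move with it beyond the test. Of 5 measured, 0 rose and 1 fell in limma, and 1 rose and 1 fell at an unadjusted p under 0.05. The median change was 0.10. The one that fell was ey, a dim feature at 5.59, 5.75 and 5.80 with pan RNAi and 5.93, 5.94 and 5.94 without (adjusted p = 0.0409). This call ended without any one Yki array (adjusted p = 0.085, 0.106 and 0.102 without replicates 1, 2 and 3), without Yki + pan RNAi replicate 1 (0.0867) or 2 (0.0702), with median-centred arrays (0.106) and with trend and robust eBayes (0.0827). All 3 pan RNAi values of ey lay under 5.91, a level that every deposited feature reaches in 3 or more arrays. It may therefore be among the features only through the Yki group, and its direction is not read as a result. The protein partner gene eya was at 9.10 ± 0.05 (SD) with and 9.10 ± 0.06 without pan RNAi (adjusted p = 0.969). The homeobox gene so, at 9.19 ± 0.10 with and 8.99 ± 0.05 without, had adjusted p = 0.0589. It became 0.0298 with median-centred arrays, 0.0394 with quantile-normalized arrays and 0.0346 with trend and robust eBayes. For toy, the adjusted p of 0.404 became 0.0225 without Yki replicate 2.

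Transcripts of the pathways that act on the axis were counted next. Of 9 measured wing disc genes listed here as activated by Wg, besides Dll, 8 fell and 0 rose in limma (0 rose at an unadjusted p under 0.05 too), and the median change was −0.84. Whether each is a target of Wg in these discs was not tested. The proneural gene sc had values of 10.81, 10.75 and 10.96 in Yki + pan RNAi discs and 12.03, 11.93 and 11.90 in Yki discs (−1.12 ± 0.07, adjusted p = 0.00032), near the change of Dll. The ligand gene Wnt6 changed by −1.35 ± 0.11 and the homeobox gene dve by −1.08 ± 0.07. The call of vg ended without Yki replicate 1 (adjusted p = 0.0708), Yki replicate 2 (0.073) or Yki + pan RNAi replicate 1 (0.0642).

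Among genes of the Dpp pathway, the other input to Dll and dac in the leg, 5 of 8 measured rose and 0 fell in limma (5 and 0 before adjustment), with a median change of 0.26. They were the ligand gene dpp (0.32 ± 0.05, adjusted p = 0.00658), the receptor gene tkv, the inhibitor gene Dad (0.24 ± 0.05) and the target genes salr and bi (0.63 ± 0.05, adjusted p = 0.00064). Against 12.1% of all features higher and 13.4% lower, 2 of 5 measured EGFR pathway genes rose and 0 fell in limma at the adjusted p. Before adjustment the counts were 2 and 0, and the median change was 0.27. The 2 that rose were Egfr, at 11.22 ± 0.04 (SD) with and 10.85 ± 0.02 without pan RNAi, and its ligand gene spi (0.40 ± 0.06, adjusted p = 0.00416). The feedback inhibitor gene aos had adjusted p = 0.155, and 0.0297 without Yki replicate 1. Of 6 measured partner and cofactor genes, 2 fell, the ey and Sp1 listed with the eye and leg disc genes, and 0 rose in limma (4 and 0 before adjustment). Among those that did not pass, tgo, which pairs with ss, was at −0.11 ± 0.04 (adjusted p = 0.118), the LIM cofactor gene Chi at 0.08 ± 0.05 (adjusted p = 0.253) and the corepressor gene gro at 0.10 ± 0.05 (adjusted p = 0.169).

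**Figure D3:**
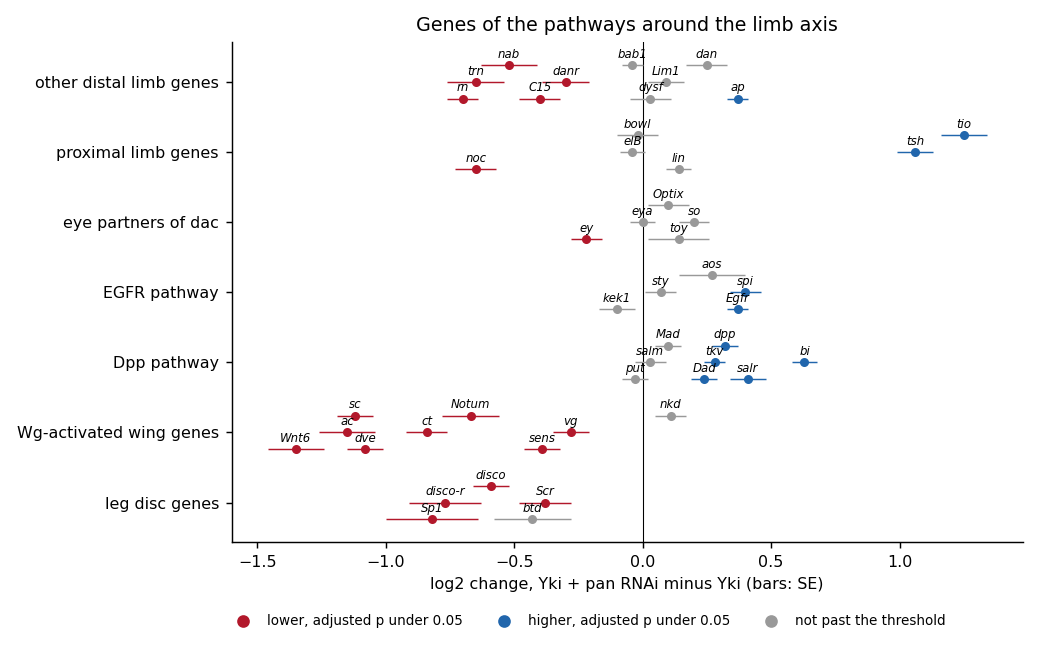
Log2 change (Yki + pan RNAi minus Yki, bars are SE) of the measured genes around the limb axis, grouped by list and coloured by the limma call at an adjusted p under 0.05. Genes listed as Wg-activated, other than nkd (0.11), and leg disc genes lie left of 0, Dpp pathway genes right of it or near it, and the other distal genes spread from −0.70 for rn to 0.37 for ap.

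Because leg and antennal discs are where these 7 genes are best known, markers of other discs were measured too. Leg disc genes were lower with pan RNAi, 4 of 5 measured passing and 0 higher in limma (5 and 0 before adjustment), with a median change of −0.59. Their mean level was 6.87, 6.57 and 7.00 in the Yki + pan RNAi arrays, against 7.28, 7.54 and 7.42 in the Yki arrays. The ventral selector genes Sp1 (7.59, 7.05 and 7.77 with pan RNAi, against 8.15, 8.37 and 8.34) and disco-r (7.37, 7.22 and 7.63, against 7.93, 8.40 and 8.19) and the Hox gene Scr were among them. The dimmest, disco, was at 5.82 ± 0.11 (SD) with and 6.41 ± 0.09 without pan RNAi (adjusted p = 0.00276). Its pan RNAi mean lay under 5.91, so like ey it may be among the features only through the Yki group.

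The order of the arrays in this list was that of B-H1 at the low end. All 5 leg disc genes were lowest in Yki + pan RNAi replicate 2 within that group and lowest in Yki replicate 1 within the other, as was B-H1. Of 6 eye and antennal disc genes, 5 were lowest in that pan RNAi array and 4 in that Yki array. Over all features, deviations of these 2 arrays from their group means correlated at 0.34, the highest of any pair between the groups. The order is therefore not particular to leg disc genes. B-H2 was lowest in replicate 2 of each group. For al, Dll, ss and bab2 the lowest pan RNAi array was replicate 1 instead, although Dll and bab2 were, like B-H1, lowest among the Yki arrays in replicate 1. This match was noticed after the values were seen, and the part of leg disc tissue in the distal genes' differences was not tested. Sp1 missed the threshold without Yki replicate 2 (adjusted p = 0.0571) or 3 (0.0582), and btd (adjusted p = 0.0799) passed without Yki + pan RNAi replicate 3 (0.016). Scr (adjusted p = 0.0365) missed it without Yki replicate 2 (0.109) or 3 (0.104) and without Yki + pan RNAi replicate 1 (0.052), 2 (0.0587) or 3 (0.0512), and with median-centred arrays (0.0747). The list held 2 passing genes without Yki replicate 2 and 2 without Yki replicate 3.

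**Figure D4:**
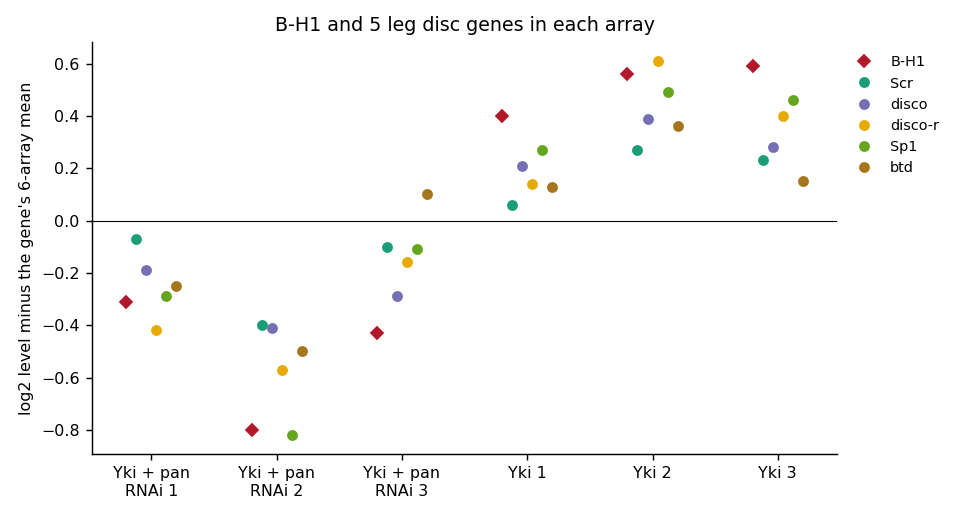
Log2 level minus each gene's 6-array mean for B-H1 (diamonds) and 5 leg disc genes (circles) in each array. All 6 genes have their lowest value in Yki + pan RNAi replicate 2, and among the Yki arrays their lowest in replicate 1.

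Markers of the labelled tissue were present. At the adjusted p, 13.4% of all features fell and 12.1% rose. Of 9 measured wing disc genes, 7 fell and 2 rose, and their mean level was 9.45 to 9.59 with pan RNAi and 9.98 to 10.05 without. Among these, vg, rn, ap and tsh were also counted in lists above, and ap and tsh were the 2 that rose. Of 6 eye and antennal disc genes 1 fell, the ey already given, with mean levels of 7.48 to 7.55 with pan RNAi and 7.44 to 7.54 without. Apart from ato, they are the eye genes counted with dac above. Of 7 myoblast genes 5 fell and 1 rose (7.79 to 7.86, against 8.26 to 8.35), all 4 haemocyte genes rose (7.55 to 7.87, against 6.84 to 7.12), 3 of 4 tracheal genes fell (10.35 to 10.45, against 10.76 to 10.80) and 1 of 6 neuron and glia genes rose (7.22 to 7.23, against 7.14 to 7.20). Log2 levels have no 0, and no deposited feature stays under 5.91 in more than 3 arrays. The part of these cell types in the differences of the 7 genes was not tested. The calls that ended on leaving out 1 array were those of Doc2 (adjusted p = 0.0503 to 0.077 over the 6 arrays left out, 0.0535 with median-centred arrays), He (0.0545 without Yki replicate 2, 0.0571 and 0.0545 without Yki + pan RNAi replicates 1 and 2) and elav (0.0622 without Yki replicate 2, 0.0642 and 0.0536 without Yki + pan RNAi replicates 1 and 2), besides ey and vg above.

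The genes beside the 7 on the chromosome were then examined, using the order of protein-coding genes in a RefSeq gene table. Of 16 measured genes among the 2 nearest on each side of the distal genes, 0 fell and 1 rose in limma. Their changes ran from −0.16 to 0.34, and 2 more genes, both lower, had an unadjusted p under 0.05. Over all features, 13.4% fell and 12.1% rose at the adjusted p. B-H1 and B-H2 are next to each other in that order, and outside the pair Fim changed by −0.16 ± 0.05 (adjusted p = 0.0733, or 0.0483 without Yki + pan RNAi replicate 3) and CG8611 by −0.02 ± 0.06 (adjusted p = 0.828). Beside al, Ent1 was at 0.07 ± 0.10 and CG4213 at 0.09 ± 0.07. Near ss the farnesyltransferase gene Fntb was at −0.14 ± 0.04 (adjusted p = 0.0534, or 0.03 with trend and robust eBayes). Near Dll, Atf-2 was at 0.10 ± 0.04 (adjusted p = 0.128). Its adjusted p became 0.0359 with median-centred and 0.0285 with quantile-normalized arrays. The neighbour that rose was CG13912 beside bab2 (0.34 ± 0.06, adjusted p = 0.00706), and the neighbour on the other side was bab1.

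The neighbours of dac on one side were higher, as dac was. Idgf3, which encodes a secreted chitinase-like growth factor, was at 6.52 ± 0.05 (SD) with pan RNAi and 5.88 ± 0.11 without (change 0.65 ± 0.07, adjusted p = 0.00127). Its relative Idgf2 was at 6.08 ± 0.15 with and 5.70 ± 0.05 without (change 0.37 ± 0.08, adjusted p = 0.017, or 0.0587 without Yki replicate 3). Both features are dim, with Yki means under 5.91, a level that every deposited feature reaches in 3 or more arrays. They may therefore be among the features only through the pan RNAi group. On the other side of dac, Tpr2 changed by 0.01 ± 0.04 (adjusted p = 0.931). These neighbours were looked up after the members' values were known.

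**Figure D5:**
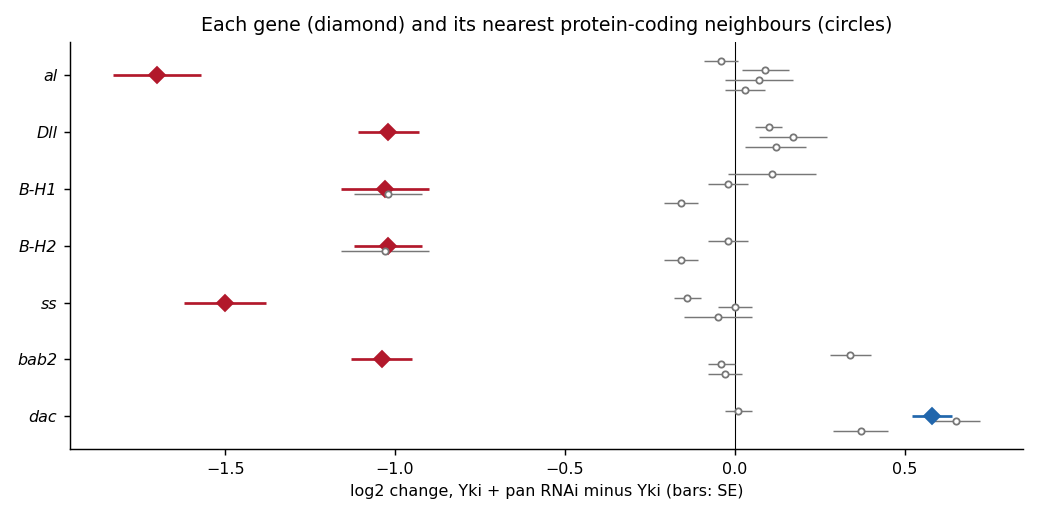
Log2 change (Yki + pan RNAi minus Yki, bars are SE) of each of the 7 genes (diamonds) and of their measured protein-coding neighbours, up to 2 on each side (open circles). Neighbours of the distal genes lie between −0.16 and 0.34 except that B-H1 and B-H2 are each other's neighbour, and 2 of 3 neighbours of dac lie to the right of 0 beside it.

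Likeness of pattern was measured as the mean absolute difference of centred log2 levels over the 6 arrays. Among the distal genes, al and ss were nearest to each other (0.139), and Dll, B-H1, B-H2 and bab2 lay within 0.106 to 0.167 of one another. From dac the distal genes were 0.799 to 1.14 away. Outside the 7, the genes nearest to the mean of the distal genes were CG11905 (0.0155), the non-coding RNA gene pncr004:X (0.0374) and the LIM homeobox gene Awh (0.0607). CG11905 was at 7.45, 7.51 and 7.64 with pan RNAi and at 8.73, 8.78 and 8.74 without.

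For the single genes, the nearest to al were smal (0.0755), CG31955 (0.0809) and the FGF ligand gene ths (0.0991). Nearest to Dll were CG16820 (0.0302), CG4586 (0.0424) and nub (0.0495), a POU-domain gene of the wing pouch whose levels were 9.52, 9.80 and 9.83 with pan RNAi and 10.88, 10.82 and 10.84 without. B-H1 had CG9747, CG13023 and CG4576 nearest (0.0866 to 0.108), and B-H2 had CG5065, sc and pncr004:X (0.068 to 0.082). The patterns nearest to ss were those of mey, kon and Fkbp14 (0.0367 to 0.0705). For bab2 they were Cyp4e2, the mesodermal gene twi and bib (0.0551 to 0.0754), and for dac CG32026, olf413 and the mitotic kinase gene aurB (0.0253 to 0.0425). The measure mostly reflects the size of the group difference, over 6 arrays of 2 groups.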

How the data were processed

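Total RNA of wing discs, isolated with TRIzol and labelled with biotin per the labels, was hybridised to 6 arrays. The values are log2 levels as deposited by the authors in 2 tables, which differ by at most 5.0e-09. How the authors corrected, normalized and summarised the signals was not stated in any label. Deposited levels run from 2.74 to 14.06, with array medians of 8.41 to 8.52. Arrays correlated at 0.994 to 0.996 inside a group and at 0.980 to 0.986 across groups.

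Features were named through the platform annotation (10156 of 11325 with 1 symbol, 313 with several, 856 with none, and 17 left unnamed for several FlyBase numbers). For 9975 features the symbol was taken by Entrez number from a RefSeq table of Release 6 plus ISO1 MT, whether or not it differed from the platform's. That table also gave the gene order. It was used for no coordinates, because no label names the build behind the arrays. The brightest feature stood for each of 22 genes with several, which left 11303.

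Groups came from the sample titles. Limma 3.58.1 in R 4.3.3 (lmFit, eBayes, no covariate) was run over all features with Benjamini-Hochberg adjustment, the test and thresholds (adjusted p under 0.05, log2 change of 1) that the series' design text gives. The code was tested on simulated data. The labels do not say that replicates are separate crosses, so p-values cover only the spread among these arrays, possibly technical. The 7 genes and all lists were chosen with earlier results of these data known. List genes were named by lowest p among those past the threshold, up to 4 a list, and others were added after their values were seen. The symbol of Dad was corrected after the files were read. Genes absent under their own single symbol, among them hth, exd and brk, and pan itself were not analysed here, so the depletion of dTcf was not checked. Alternatives were median centring, quantile normalization, leaving out features with a mean under 6, the second table, trend and robust eBayes, all features, each array left out and the replicate number as a block. No sequences are shown.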

Additional observations from a re-analysis of the deposited data

How the results depend on the processing

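The changes of the 7 genes kept their sign under all 13 alternatives, which their selection on this contrast favours, so this is no independent support. Each change moved by less than the gene's SD pooled over both groups, although Dll, at −0.92 without Yki + pan RNAi replicate 1 against −1.02, moved by more than its SD in Yki discs alone (0.03). The number of features past the adjusted p was 2887, and 1744 to 2435 with 1 array left out (1815 without Yki replicate 2, 1810 without Yki replicate 3, 1744 without Yki + pan RNAi replicate 1). Fewer arrays leave fewer degrees of freedom. Median centring gave 2086 features higher and 1086 lower, against 1369 and 1518 as deposited, and moved the median change of all features from 0.03 to 0.09. Features called at 2-fold numbered 173, and 147 to 196 under the alternatives.

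Same-numbered replicates did not clearly deviate from their group means together (correlations −0.13, −0.10 and 0.16). Yki + pan RNAi replicate 2 gave 0.34 with Yki replicate 1 and −0.28 with Yki replicate 3. With 3 arrays a group, whether same-numbered arrays share a batch cannot be told. With the replicate block 2159 features passed the adjusted p and 175 were called at 2-fold. The block ended the calls of danr (adjusted p = 0.0712), vg (0.069), Scr (0.0762), ey (0.0677) and elav (0.0535) among the list genes. The change of the distal mean minus dac was −1.80 with that block. Precision is limited by having 3 arrays a group.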
